A study of Rattus norvegicus with 51 samples.

Results

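The chemokine system of the arrays comprised 50 genes: every gene of the deposited annotation whose single symbol is Ccl, Cxcl, Cx3cl, Xcl, Ccr, Cxcr, Cx3cr or Xcr followed by a number, out of 18602 genes with a single symbol. The 49 described here are 33 genes of secreted or membrane-bound ligands and 16 of receptors. Each was measured by 1 probe set, and all 49 were matched to a RefSeq gene, Cxcr7 under its current name Ackr3. Chemokines are small secreted proteins that bind G protein-coupled receptors on target cells and set up gradients along which leukocytes and progenitor cells migrate. In the heart they are made by cardiomyocytes, fibroblasts, endothelium and macrophages, and they are best known for recruiting neutrophils and monocytes after injury. Atypical receptors such as Ackr3 bind chemokines without classical G protein signalling and remove them from the surroundings.

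Total RNA came from ventricular muscle cells of newborn Sprague-Dawley rats (neonatal rat ventricular myocytes), seeded as engineered tissues on silicone membranes that carried fibronectin as a micropattern (anisotropic tissue) or as an even coat (isotropic tissue). Anisotropic tissue was stretched across the pattern (transverse) or along it (longitudinal) or stayed unstretched, and isotropic tissue was stretched or stayed unstretched, each for 6, 24 or 96 h with n = 3 arrays, against isotropic tissue kept static for 1 h after seeding (0 h, n = 6). The sources used here do not give the amplitude or rate of the stretch. The 51 arrays drew on 6 primary cell harvests, and the medium held less serum at the 96 h point than at 6 and 24 h, per the labels, so that time and serum cannot be told apart at 96 h. The 0 h tissue was isotropic, so that anisotropic values against 0 h hold layout as well as time. Such primary cultures hold non-muscle cells too. Of the 10 cardiomyocyte markers, the dimmest value on any array was 7.96 on the log2 scale, whereas none of 8 neutrophil markers exceeded 4.92. The brightest values among 10 T and NK cell markers and 3 B cell markers were 6.05 (Cd4) and 5.92 (Cd79b), and Cd3d and Cd3e did not exceed 4.12 and 4.06. The brightest values of 13 macrophage markers ran from 5.15 (Cd163) to 10.39 (Cd14), with Cd68 between 5.57 and 9.35. A level is not comparable between genes, so these values do not give the amount of any cell type. The number of arrays limits the precision. Replicates share harvests across groups, and whether arrays of 1 harvest came from separate dishes is not given in the sources used here.

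A pair of isotropic arrays stood apart from their labels, namely replicate 1 of the 24 h stretched group and replicate 1 of the 96 h unstretched group. The authors' deposited table gives a fold change against 0 h for each of 15 groups; 13 of 15 matched differences of the labelled group means (tolerance 0.001), and 15 of 15 did once these 2 arrays were exchanged. Labels were kept, and where a member's call appears or is lost with these arrays exchanged or with both left out of the fit, those values are given too. Counts of cell type markers and of other gene lists were made as labelled only, so isotropic counts at 24 and 96 h hold these arrays. A further array, replicate 3 of the 96 h transverse group, had higher values than the other 2 replicates for several CC and CXC ligands, as described below. It was the only array of 96 h from harvest 4, so that array and harvest cannot be told apart at that time. Values are log2 signals of single arrays, a level is not comparable between genes, and every change is a difference of log2 signal, first-named group minus second, ± its standard error. Adjusted p-values come from limma with harvest as a term, adjusted over all 18602 genes.

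The promoters of 6 ligand genes that carry the results below are printed here, since several of these ligands are chromosomal neighbours with different time courses. Cxcl1, Cxcl2, Cxcl6, Cxcl10 and Cxcl11 lie together on chromosome 14, and Cxcl12 lies on chromosome 4. RefSeq windows of assembly GRCr8, the last 200 bases before each start site, are given 5′ to 3′ on the gene's strand, with matches to the NF-kB consensus and to TATAAA in capitals.
Cxcl12: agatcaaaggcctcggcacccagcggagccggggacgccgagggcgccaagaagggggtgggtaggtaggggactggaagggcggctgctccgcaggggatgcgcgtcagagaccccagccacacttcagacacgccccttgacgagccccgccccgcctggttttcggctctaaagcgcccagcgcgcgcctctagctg
Cxcl1: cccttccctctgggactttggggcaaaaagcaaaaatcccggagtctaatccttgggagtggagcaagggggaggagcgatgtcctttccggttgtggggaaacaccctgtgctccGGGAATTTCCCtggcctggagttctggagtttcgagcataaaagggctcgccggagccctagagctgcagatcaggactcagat
Cxcl2: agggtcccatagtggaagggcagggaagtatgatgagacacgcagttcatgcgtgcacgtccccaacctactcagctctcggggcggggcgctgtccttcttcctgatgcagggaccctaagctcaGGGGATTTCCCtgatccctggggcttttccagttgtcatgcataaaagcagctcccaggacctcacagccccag
Cxcl6: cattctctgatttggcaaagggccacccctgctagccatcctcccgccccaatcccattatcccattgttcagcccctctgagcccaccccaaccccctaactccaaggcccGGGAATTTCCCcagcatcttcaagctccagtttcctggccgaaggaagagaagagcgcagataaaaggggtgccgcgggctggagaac
Cxcl10: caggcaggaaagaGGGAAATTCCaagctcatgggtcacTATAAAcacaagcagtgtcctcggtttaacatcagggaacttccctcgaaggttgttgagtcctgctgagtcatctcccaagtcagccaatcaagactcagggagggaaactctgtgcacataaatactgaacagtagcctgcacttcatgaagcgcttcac
Cxcl11: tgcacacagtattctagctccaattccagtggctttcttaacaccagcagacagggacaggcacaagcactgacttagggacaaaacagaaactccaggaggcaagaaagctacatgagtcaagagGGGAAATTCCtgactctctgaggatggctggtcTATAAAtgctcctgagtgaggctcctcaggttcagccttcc
These windows are chr4:152060581-152060780 (plus strand), chr14:17479322-17479521, chr14:17467256-17467455 and chr14:17596418-17596617 (minus strand), and chr14:15988866-15989065 and chr14:15973528-15973727 (plus strand). Within 250 bases before the start, on either strand, the NF-kB consensus was found in 8 of the 37 member windows (Ccl9, Ccl20, Ccr3, Cxcl1, Cxcl2, Cxcl6, Cxcl10 and Cxcl11) and in 3.54% of all 33469 windows. In Cxcl1, Cxcl2 and Cxcl6 matches on both strands overlapped by all but 1 base. The core of the interferon-stimulated response element (GAAA, any 2 bases, GAAA) was found in 2 member windows (Ccl19 and Cxcl10) and in 3.41% of all windows, and TATAAA in 11 member windows and 12.9% of all. The Cxcl12 window held neither the NF-kB consensus nor TATAAA.

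Chemokine genes were called for culture time and for stretch against no stretch, and none was called for tissue layout or for stretch direction. With the arrays as labelled, 27 members passed the threshold in at least 1 of 23 comparisons: 22 ligands and the receptors Cxcr4, Cxcr7, Ccr1, Ccr2 and Cx3cr1. Every one of the 27 passed in a comparison of times, and 9 of them (Ccl7, Ccl12, Ccl24, Cxcl2, Cxcl11, Cxcl12, Cxcl13, Cxcl16 and Ccr1) passed in a comparison of stretched with unstretched tissue. The group means of 14 ligands and 2 receptors spanned at least 2 log2 units over the 16 groups, and those of 15 ligands and 14 receptors spanned under 1. For these counts over several comparisons or groups, the shares of all genes were not computed. Shares for each comparison are given below.

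**Figure D1:**
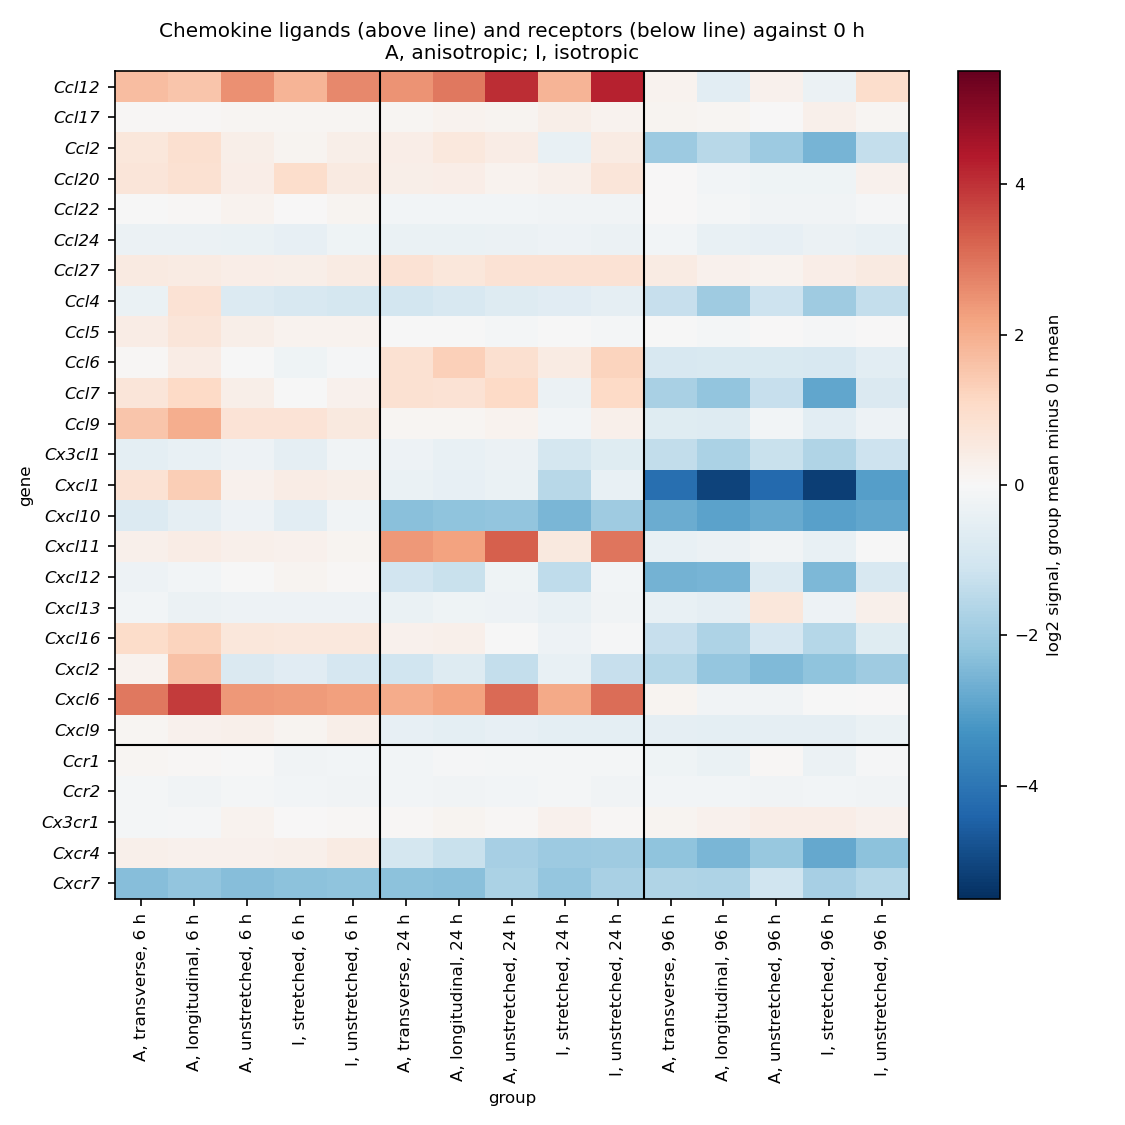
Colours give the difference of each group's mean log2 signal from the 0 h mean for the 27 genes called in at least 1 comparison, ligands above the line and receptors below it, with groups in columns by time. Ccl12, Cxcl6 and Cxcl11 are red at 24 h only or at 6 and 24 h, Cxcl1, Cxcl10 and Cxcr4 turn blue by 24 or 96 h, and Cxcl12 is bluer in the stretched columns of 24 and 96 h than in the unstretched ones.

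Stretch was compared with its absence at each time and in each layout. At 6 h, 1 member was called under longitudinal stretch, Cxcl2 (0.0968% of all genes were called, each of them higher), and none under transverse stretch (0% of all genes) or isotropic stretch (0.00538% of all genes), where limma left 3 and 2 members at unadjusted p under 0.05, against 575 and 359 of all 18602 genes. At 24 h the called members were Cxcl12 under transverse stretch (1.46% of all genes were called, 0.538% higher and 0.919% lower), Cxcl12 under longitudinal stretch (2.23% of all genes were called, 0.79% higher and 1.44% lower), and Cxcl12, Cxcl11 and Ccl12 under isotropic stretch (3.93% of all genes were called, 0.978% higher and 2.95% lower). By 96 h they were 4 under transverse stretch (15% of all genes were called, 6.39% higher and 8.65% lower; Cxcl12, Cxcl13 and Ccr1 lower, Ccl24 higher), 2 under longitudinal stretch (9.7% of all genes were called, 4.31% higher and 5.39% lower; Cxcl12 and Cxcl13, both lower) and 3 under isotropic stretch (2.94% of all genes were called, 1.51% higher and 1.43% lower; Cxcl12, Cxcl16 and Ccl7, all lower). The shares of members called under transverse, longitudinal and isotropic stretch were 2.04%, 2.04% and 6.12% at 24 h and 8.16%, 4.08% and 6.12% at 96 h. They were below the shares of all genes under longitudinal stretch at 24 h and in both anisotropic comparisons of 96 h. The widest excess was 6.12% of members, or 3 genes, against 2.94% of all genes under isotropic stretch at 96 h.

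**Figure D2:**
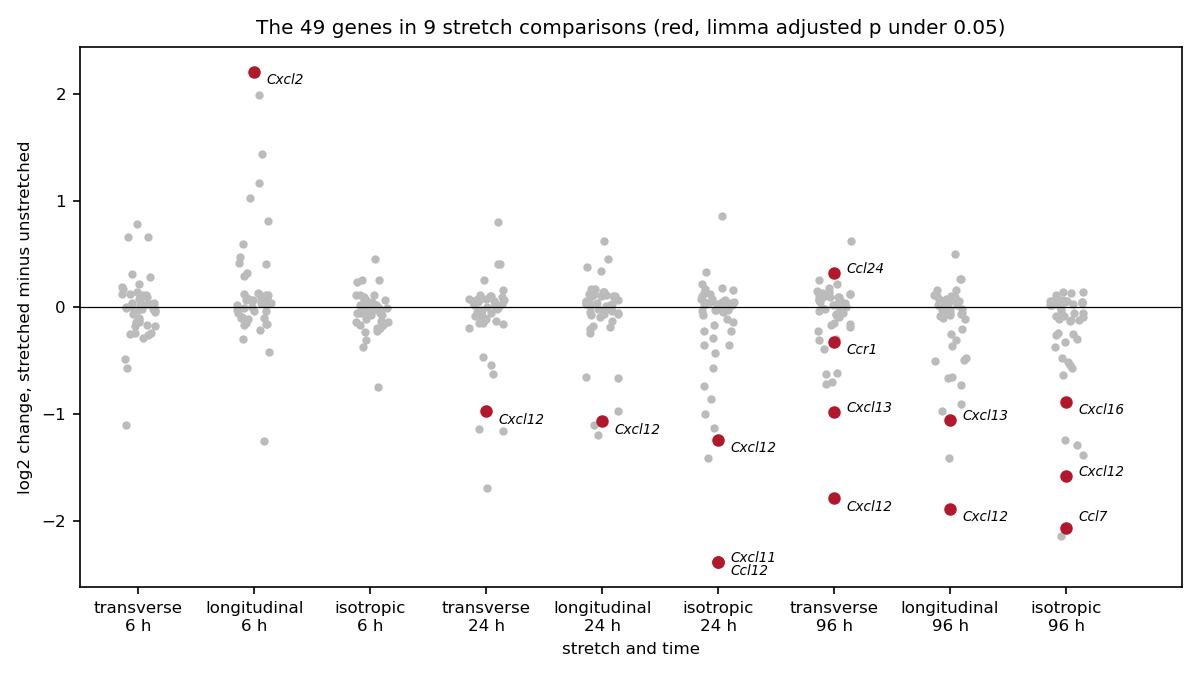
Each point is the log2 change of 1 of the 49 genes, stretched minus unstretched, in 9 comparisons by time (left to right) and stretch; red points passed limma's threshold and are named. Cxcl12 is red in all 6 comparisons at 24 and 96 h and Cxcl2 is the 1 red point at 6 h.

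Cxcl12 encodes stromal cell-derived factor 1, which retains haematopoietic progenitors in bone marrow and recruits cells to injured tissue through Cxcr4. It was lower in stretched tissue than in unstretched tissue in all 6 comparisons of 24 and 96 h. At 96 h its arrays read 4.79, 5.28 and 5.13 under transverse stretch, 5.16, 4.90 and 5.27 under longitudinal stretch and 6.76, 6.94 and 7.08 in unstretched anisotropic tissue. Isotropic arrays read 4.92, 5.42 and 5.21 in stretched tissue, against 6.73, 6.83 and 6.74 in unstretched tissue. All 9 stretched arrays of that time lay below all 6 unstretched arrays. The change was -1.79 ± 0.19 (adjusted p = 8.2e-08) under transverse, -1.89 ± 0.20 (adjusted p = 3.1e-07) under longitudinal and -1.58 ± 0.18 (adjusted p = 4.8e-06) under isotropic stretch, or 3.46-fold, 3.7-fold and 2.99-fold lower. By p-value Cxcl12 ranked 11, 3 and 2 of 18602 genes. Without transverse replicate 3, the array that stood apart, the transverse change was -1.86 (adjusted p = 3.9e-07). In bulk RNA, fewer cells of a type and less RNA per cell cannot be told apart, here and below.

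At 24 h the Cxcl12 arrays read 5.81, 6.77 and 7.22 under transverse stretch, 6.68, 6.34 and 6.31 under longitudinal stretch and 7.25, 7.60 and 7.43 in unstretched anisotropic tissue. In isotropic tissue they read 5.74, 6.36 and 6.73 when stretched, against 7.53, 7.68 and 7.35 when unstretched. Stretched and unstretched arrays did not overlap in any layout, and the transverse arrays were the most spread. The changes were -0.97 ± 0.20 (adjusted p = 0.0094), -1.07 ± 0.19 (adjusted p = 0.0012) and -1.24 ± 0.18 (adjusted p = 9.2e-05) for transverse, longitudinal and isotropic stretch. The transverse call depended on 1 array: without transverse replicate 1 the change was -0.53 (adjusted p = 0.12). With the 2 isotropic arrays exchanged the isotropic changes were -0.91 (adjusted p = 0.0017) at 24 h and -1.25 (adjusted p = 3e-05) at 96 h, and with both left out -1.01 (adjusted p = 0.001) and -1.53 (adjusted p = 2.6e-06). Leaving out any single array of the groups compared ended no other Cxcl12 stretch call. In a fit to the arrays of 24 h and 0 h alone, the transverse and longitudinal changes were -1.02 (adjusted p = 0.25) and -1.10 (adjusted p = 0.13) and did not pass. With own 0 h arrays subtracted the transverse change was -0.80 (adjusted p = 0.061).

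At 6 h no Cxcl12 difference passed: the transverse, longitudinal and isotropic estimates were -0.26 ± 0.19 (adjusted p = 1), -0.10 ± 0.19 (adjusted p = 0.99) and 0.07 ± 0.18 (adjusted p = 1), with 95% intervals of -0.65 to 0.13, -0.49 to 0.29 and -0.30 to 0.45. Group means at 6 h were 7.37 ± 0.07 under transverse stretch, 7.54 ± 0.31 under longitudinal stretch and 7.64 ± 0.16 in unstretched anisotropic tissue (SD, n = 3 each). Isotropic means were 7.82 ± 0.20 in stretched tissue and 7.75 ± 0.01 in unstretched tissue. In unstretched tissue the gene was close to its 0 h level (between 7.46 and 7.87 with a median of 7.66) at 24 h and lower at 96 h, with changes of -0.70 ± 0.17 (adjusted p = 0.0008) in anisotropic and -0.86 ± 0.17 (adjusted p = 6.7e-05) in isotropic tissue. Transverse minus longitudinal differences were -0.16 ± 0.18 (adjusted p = 1), 0.09 ± 0.19 (adjusted p = 0.97) and 0.10 ± 0.20 (adjusted p = 0.98) at 6, 24 and 96 h, with 95% intervals of -0.54 to 0.21, -0.30 to 0.48 and -0.31 to 0.50.

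Some fibroblast, macrophage and endothelial markers fell where Cxcl12 did, though not every list in each comparison, and their part in its change was not tested. Of 10 fibroblast markers, 2, 3 and 4 fell at 24 h and 5, 5 and 2 fell at 96 h under transverse, longitudinal and isotropic stretch, and none rose. The mean log2 signal over that list in each array ran 8.35 to 8.83 in transverse, 8.77 to 8.83 in longitudinal and 10.02 to 10.44 in unstretched anisotropic tissue at 96 h. Isotropic ranges were 8.62 to 9.49 in stretched tissue and 8.23 to 10.17 in unstretched tissue. Of 13 macrophage markers, 11, 11 and 6 fell at 96 h with medians of -1.26, -1.06 and -0.73. Over all genes the medians of the 6 stretch comparisons at 24 and 96 h lay between -0.01 and 0.02. At 24 h 0, 2 and 3 of the macrophage markers fell. Of 7 endothelial markers, 1, 1 and 4 fell at 24 h with medians of -0.28, -0.28 and -0.56, and 2, 1 and 1 fell at 96 h. Of 10 cardiomyocyte markers, 0, 0 and 3 fell at 24 h and none rose. At 96 h 2, 2 and 0 of the cardiomyocyte markers fell and 2, 1 and 1 rose. Of 6 smooth muscle and pericyte markers, 0, 2 and 1 rose at 24 h and none fell. At 96 h 2, 1 and 0 of these 6 fell and 2, 1 and 0 rose. Of all genes, 0.919%, 1.44% and 2.95% were called lower at 24 h and 8.65%, 5.39% and 1.43% at 96 h.

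**Figure D3:**
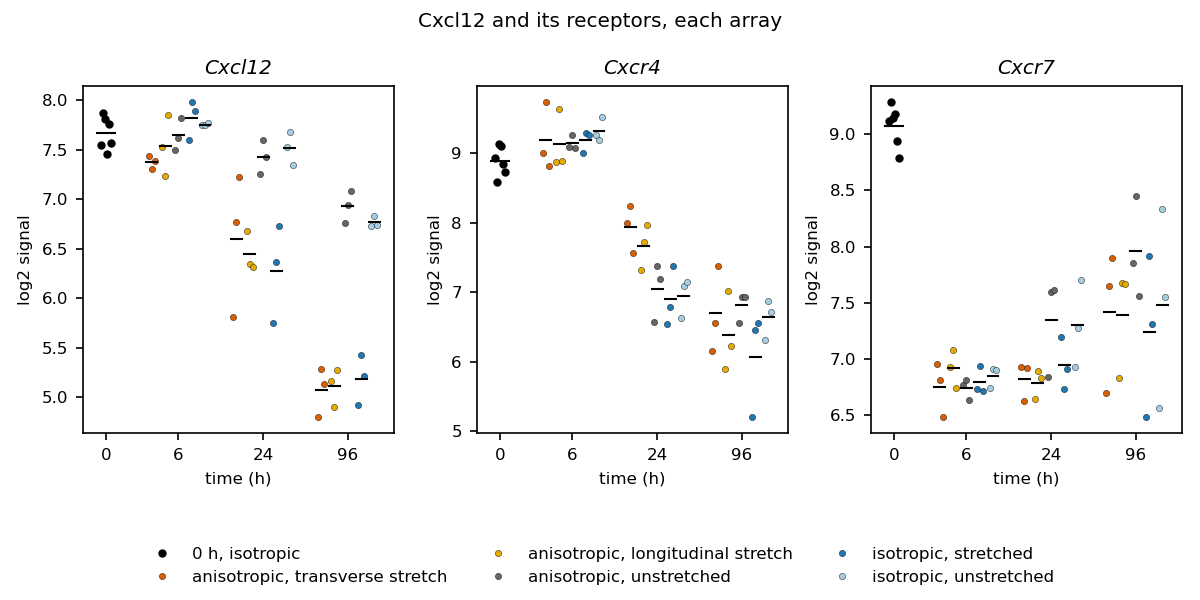
Log2 signal of Cxcl12 and of its receptors Cxcr4 and Cxcr7 (Ackr3) in every array, by time on equally spaced steps, with group means as bars and groups by colour. Stretched Cxcl12 arrays of 96 h lie between 4.79 and 5.42 and unstretched ones between 6.73 and 7.08, while Cxcr7 drops from its 0 h values by 6 h and Cxcr4 by 24 h in every group.

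Cxcl1, Cxcl2, Cxcl3 and Cxcl6 belong to the family that attracts neutrophils through Cxcr2 and is transcribed in response to NF-kB; Cxcr2 was not analysed here. Cxcl2 was the member that rose under longitudinal stretch at 6 h. Its arrays read 6.85, 7.81 and 5.94 under transverse stretch, 8.20, 8.54 and 8.16 under longitudinal stretch and 5.47, 6.14 and 6.04 in unstretched anisotropic tissue. Every longitudinal array lay above every unstretched array, and the transverse arrays were spread from near the unstretched level to near the longitudinal level. The longitudinal change was 2.21 ± 0.38 (adjusted p = 0.0024), a 4.62-fold rise ranked 14 of 18602 by p-value, and it passed neither without longitudinal replicate 3, at 2.06 (adjusted p = 0.062), nor without unstretched replicate 1, at 2.01 (adjusted p = 0.055). The transverse difference was 0.78 ± 0.38 (adjusted p = 1) and the isotropic difference 0.26 ± 0.37 (adjusted p = 1). At 24 h the isotropic difference was 0.85 ± 0.37 (adjusted p = 0.23) as labelled, and it passed with the 2 isotropic arrays left out, at 1.32 (adjusted p = 0.032). Transverse minus longitudinal at 6 h, Cxcl2 differed by -1.43 ± 0.37 (adjusted p = 0.55), with a 95% interval of -2.18 to -0.68.

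Other ligands had positive longitudinal differences at 6 h that did not pass: Ccl3 1.98 ± 0.48 (adjusted p = 0.12), Ccl4 1.44 ± 0.37 (adjusted p = 0.16), Ccl9 1.16 ± 0.29 (adjusted p = 0.15), Cxcl6 1.03 ± 0.52 (adjusted p = 0.99), Cxcl1 0.81 ± 0.69 (adjusted p = 0.99) and Cxcl3 0.59 ± 0.19 (adjusted p = 0.56). Ccl3 arrays read 8.13, 9.47 and 7.64 under transverse stretch, 9.74, 9.93 and 9.55 under longitudinal stretch and 7.26, 7.56 and 7.90 in unstretched anisotropic tissue. All 3 longitudinal Ccl3 arrays lay above all 3 unstretched arrays. With the 2 isotropic arrays left out of the shared fit, Ccl3 passed at 2.05 (adjusted p = 0.04). Of 21 NF-kB and cytokine genes, 4 rose under longitudinal stretch at 6 h (Csf2 2.38, Il1a 2.13, Nos2 1.90 and Csf3 1.06), against a median of 0.34 for the list and 0.00 for all genes. Of all genes, 0.0968% were called there, each of them higher. None of the list was called under transverse or isotropic stretch at 6 h.

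With time in culture Cxcl2 and Cxcl1 fell and Cxcl6 rose and returned. Cxcl1 lay between 10.19 and 10.46 with a median of 10.33 over the 6 arrays of 0 h. In unstretched anisotropic tissue its arrays read 10.35, 10.63 and 10.77 at 6 h, 9.65, 9.98 and 10.30 at 24 h and 5.82, 6.09 and 6.21 at 96 h. The 96 h arrays lay below all others of that tissue, a change of -4.09 ± 0.60 (adjusted p = 9e-07) against 0 h and -3.71 ± 0.68 (adjusted p = 0.00034) against 24 h. In isotropic unstretched tissue the 96 h arrays read 9.12, 6.42 and 6.33, a change of -2.84 ± 0.60 (adjusted p = 0.00023) as labelled, -4.06 (adjusted p = 3.9e-14) with the 2 arrays exchanged and -3.90 (adjusted p = 9.3e-12) with both left out. Its isotropic stretch difference at 96 h was -2.14 ± 0.67 (adjusted p = 0.077) as labelled, -0.99 (adjusted p = 0.049) exchanged and -1.16 (adjusted p = 0.043) with both left out.

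Cxcl6, a granulocyte chemoattractant, lay between 4.86 and 5.22 with a median of 4.97 over the 6 arrays of 0 h. It was higher in anisotropic unstretched tissue by 2.63 ± 0.45 (adjusted p = 1.5e-05) at 6 h and 3.04 ± 0.45 (adjusted p = 1e-06) at 24 h, and in isotropic tissue by 2.41 ± 0.45 (adjusted p = 6e-05) and 2.98 ± 0.45 (adjusted p = 1.5e-06). Between 24 and 96 h it fell by 3.11 on the log2 scale in anisotropic unstretched tissue (adjusted p = 9.5e-05), and all 15 arrays of 96 h read between 4.61 and 5.32. Cxcl2 was lower than at 0 h, with changes in anisotropic unstretched tissue of -1.50 ± 0.33 (adjusted p = 0.00036) at 24 h and -2.39 ± 0.33 (adjusted p = 3.4e-07) at 96 h, and in isotropic tissue of -0.89 ± 0.33 (adjusted p = 0.039) at 6 h, -1.44 ± 0.33 (adjusted p = 0.00058) at 24 h and -1.92 ± 0.33 (adjusted p = 1.3e-05) at 96 h. Cxcl2 did not pass in isotropic tissue at 6 h without any 1 of 0 h replicates 1, 2 and 5 or 6 h replicates 1 and 2, at -0.85 to -0.76. Cxcl3 was called in no comparison as labelled, with group means from 5.07 to 6.26.

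Cxcl9, Cxcl10 and Cxcl11 are interferon-inducible ligands of Cxcr3, a receptor of activated T cells, and their time courses differed in direction. Cxcl10 lay between 7.21 and 8.0 with a median of 7.68 over the 6 arrays of 0 h. Its arrays in anisotropic unstretched tissue read 7.23, 7.41 and 7.38 at 6 h, 5.41, 5.71 and 5.27 at 24 h and 4.80, 5.02 and 4.72 at 96 h, and in isotropic unstretched tissue 7.25, 7.60 and 7.48, 5.67, 5.72 and 5.67 and 4.84, 4.84 and 4.59. Values of 24 and 96 h did not overlap those of 0 h. The fall was -2.19 ± 0.16 (adjusted p = 1.9e-13) and -1.97 ± 0.16 (adjusted p = 2.9e-12) at 24 h and -2.80 ± 0.16 (adjusted p = 3.9e-16) and -2.88 ± 0.16 (adjusted p = 1.7e-16) at 96 h in anisotropic and isotropic tissue. Cxcl9, with all arrays between 3.82 and 5.05, changed by -0.45 ± 0.12 (adjusted p = 0.0025) and -0.54 ± 0.12 (adjusted p = 0.00043) at 24 h and by -0.55 ± 0.12 (adjusted p = 0.00034) and -0.43 ± 0.12 (adjusted p = 0.004) at 96 h, after 0.33 ± 0.12 (adjusted p = 0.034) at 6 h in anisotropic tissue. Cxcl9 did not pass at that 6 h point without any 1 of 0 h replicates 1 and 2 or 6 h replicates 1, 2 and 3, at 0.28 to 0.34.

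Cxcl11 had a peak at 24 h. It lay between 4.92 and 5.20 with a median of 5.12 over the 6 arrays of 0 h, and in anisotropic unstretched tissue its arrays read 5.07, 5.51 and 5.60 at 6 h, 7.69, 8.88 and 8.58 at 24 h and 4.96, 4.53 and 5.23 at 96 h. The rise at 24 h was 3.37 ± 0.35 (adjusted p = 7.8e-10) in anisotropic and 3.03 ± 0.35 (adjusted p = 8.2e-09) in isotropic tissue, and the change from 24 to 96 h was -3.39 ± 0.40 (adjusted p = 1.3e-06). Cxcl10 and Cxcl11, whose windows lie within 1 cluster on chromosome 14, thus changed in opposite directions against 0 h at 24 h.

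Under isotropic stretch Cxcl11 was lower at 24 h. Its arrays read 4.89, 4.88 and 7.20 in stretched tissue, against 8.08, 7.94 and 8.11 in unstretched tissue, without overlap. The change was -2.38 ± 0.39 (adjusted p = 0.00022), -2.22 (adjusted p = 0.00012) with the 2 isotropic arrays exchanged and -2.09 (adjusted p = 0.0018) with both left out. In a fit to the arrays of 24 h and 0 h alone it was -2.38 (adjusted p = 0.052) and did not pass. Under this stretch 3 of 13 macrophage, 4 of 10 fibroblast and 4 of 7 endothelial markers fell too. So did 3 of 10 cardiomyocyte and 1 of 4 erythroid markers, and 1 of 6 smooth muscle and pericyte markers rose. These marker counts are as labelled and were not repeated with the 2 isotropic arrays exchanged or left out. The erythroid mean per array ran 5.67 to 7.77 in stretched and 8.45 to 8.59 in unstretched tissue. Of all genes, 2.95% were called lower and 0.978% higher. The endothelial mean per array ran 5.30 to 5.37 in stretched and 5.61 to 5.92 in unstretched tissue. The part of these markers in the Cxcl11 change was not tested. In anisotropic tissue the 24 h arrays read 6.61, 7.19 and 8.69 under transverse stretch, 6.68, 8.42 and 6.88 under longitudinal stretch and 7.69, 8.88 and 8.58 when unstretched, the groups overlapped, and the changes of -1.16 ± 0.42 (adjusted p = 0.17) and -1.11 ± 0.40 (adjusted p = 0.16) did not pass. The F test of whether the 24 h response differed between layouts did not call Cxcl11 (adjusted p = 0.86). The Cxcl10 difference was -0.56 ± 0.18 (adjusted p = 0.068) under isotropic stretch at 24 h, and -0.61 (adjusted p = 0.027) with the arrays exchanged. Of 18 interferon response genes, 2, 7 and 9 fell at 24 h under transverse, longitudinal and isotropic stretch and none rose, with medians of -0.26, -0.37 and -0.62. They included Mx2, an antiviral GTPase (-1.65, -1.83 and -2.25), and Usp18, which removes ISG15 from proteins (-1.45, -1.44 and -2.12). Of all genes, 0.919%, 1.44% and 2.95% were called lower in these 24 h comparisons. At 96 h 5, 5 and 0 of the interferon response genes fell and none rose.

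**Figure D4:**
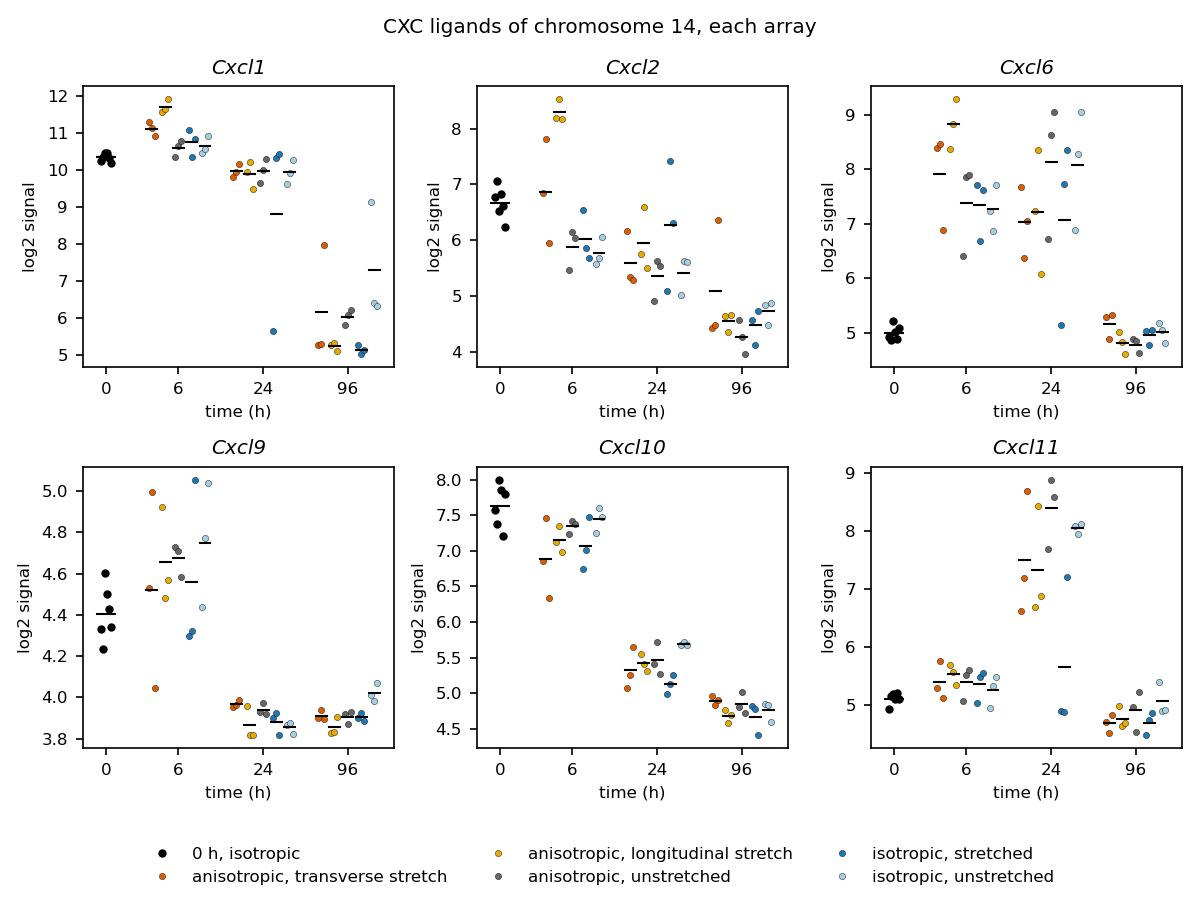
Log2 signal of 6 CXC ligands of chromosome 14 in every array, by time on equally spaced steps, with group means as bars. In unstretched tissue Cxcl11 is above its 0 h range at 24 h and back near it at 96 h. Under isotropic stretch some Cxcl11 arrays of 24 h lie below that range. Cxcl10 in unstretched tissue is below its 0 h range at 24 and 96 h. The 3 longitudinal Cxcl2 arrays of 6 h lie between 8.16 and 8.54, above all others of that time.

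Ccl2, Ccl7 and Ccl12 encode monocyte chemoattractants, the last known from mouse, that act through Ccr2. Ccl2 lay between 11.43 and 12.05 with a median of 11.73 over the 6 arrays of 0 h. It read 11.97, 12.18 and 12.29 at 24 h and 9.40, 10.04 and 9.71 at 96 h in anisotropic unstretched tissue, a change of -1.72 ± 0.49 (adjusted p = 0.0049) against 0 h and -2.28 ± 0.56 (adjusted p = 0.0049) against 24 h, without overlap. In isotropic unstretched tissue at 96 h it read 11.51, 10.01 and 9.75, a change against 0 h of -1.01 ± 0.49 (adjusted p = 0.11) as labelled and -1.76 (adjusted p = 0.00017) exchanged and -1.83 (adjusted p = 0.001) with both left out. Ccl2 was called in no stretch comparison. At 96 h it read 8.90, 8.70 and 11.53 under transverse and 8.70, 11.31 and 10.53 under longitudinal stretch, against the unstretched values above, with transverse replicate 3 the highest of the 9 arrays. Its 6 h differences were -0.14 ± 0.56 (adjusted p = 1) under transverse, 0.12 ± 0.56 (adjusted p = 1) under longitudinal and -0.17 ± 0.54 (adjusted p = 1) under isotropic stretch.

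Ccl12 showed the largest rise of any member against 0 h. It lay between 4.66 and 5.11 with a median of 5.01 over the 6 arrays of 0 h. In anisotropic unstretched tissue its arrays read 6.70, 8.02 and 7.70 at 6 h, 8.97, 9.29 and 8.72 at 24 h and 4.82, 5.24 and 5.55 at 96 h, so that 6 and 24 h lay wholly above 0 h. The changes against 0 h were 2.73 ± 0.55 (adjusted p = 0.00017) and 4.15 ± 0.56 (adjusted p = 1.7e-07) in anisotropic tissue and 2.68 ± 0.56 (adjusted p = 0.00024) and 4.36 ± 0.56 (adjusted p = 6.9e-08) in isotropic tissue, followed by -3.86 ± 0.64 (adjusted p = 9.5e-05) from 24 to 96 h. Under isotropic stretch at 24 h the arrays read 4.51, 7.54 and 8.40, against 9.04, 9.53 and 9.05 in unstretched tissue, a change of -2.39 ± 0.62 (adjusted p = 0.02) in which the array that stood apart was the lowest. Exchanged, the change was -1.48 (adjusted p = 0.022), and with both arrays left out -1.36 (adjusted p = 0.09), which did not pass. It also failed to pass without isotropic unstretched replicate 1, at -2.29 (adjusted p = 0.11), unstretched replicate 2, at -2.29 (adjusted p = 0.078), or stretched replicate 1, at -1.29 (adjusted p = 0.23). In fits with own 0 h arrays subtracted and to the arrays of 24 h and 0 h alone it was -2.39 (adjusted p = 0.086) and -2.39 (adjusted p = 0.094). The same macrophage, fibroblast, endothelial, cardiomyocyte and erythroid markers fell beside it as beside Cxcl11, and their part was not tested. The transverse and longitudinal differences at 24 h were -1.70 ± 0.67 (adjusted p = 0.22) and -1.19 ± 0.64 (adjusted p = 0.45) as labelled. The transverse one passed with the 2 isotropic arrays exchanged, at -1.68 (adjusted p = 0.031), and with both left out, at -1.67 (adjusted p = 0.035).

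Ccl7 was lower under isotropic stretch at 96 h. It read 5.20, 6.54 and 6.90 in stretched tissue, against 8.90, 7.89 and 8.05 in unstretched tissue, without overlap. The change was -2.07 ± 0.56 (adjusted p = 0.035) as labelled, -1.19 (adjusted p = 0.082) exchanged and -1.51 (adjusted p = 0.058) with both left out, so that the call rests on the labels of the 2 arrays. It was -2.07 (adjusted p = 0.13) with no harvest term, -2.07 (adjusted p = 0.19) with own 0 h arrays subtracted and -2.07 (adjusted p = 0.074) in a fit to the arrays of 96 h and 0 h alone. Single arrays also ended it: without unstretched replicate 1 the change was -1.44 (adjusted p = 0.2), and without stretched replicates 1, 2 and 3 it was -1.79 (adjusted p = 0.21), -2.15 (adjusted p = 0.069) and -2.27 (adjusted p = 0.065). In anisotropic tissue at 96 h Ccl7 read 6.03, 6.06 and 9.85 under transverse stretch, 6.19, 7.58 and 6.94 under longitudinal stretch and 7.39, 7.94 and 8.15 when unstretched. Transverse replicate 3 lay above all unstretched arrays and the other two transverse arrays below them. The transverse change was -0.70 ± 0.58 (adjusted p = 0.47) with all arrays and -1.65 (adjusted p = 0.031) without replicate 3. That array was singled out for its high values of such ligands, so the larger fall without it follows from the choice and is no separate support. From 24 to 96 h Ccl7 changed by -2.18 ± 0.58 (adjusted p = 0.0088) in anisotropic unstretched tissue. Ccl7 did not pass in that comparison without 24 h replicate 2, at -2.06.

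Ccl3 and Ccl4 (macrophage inflammatory proteins 1 alpha and beta) and Ccl5 (RANTES) attract monocytes and T cells, and Ccl6 and Ccl9 are known from mouse as ligands of Ccr1. Ccl4 was lower than at 0 h, with changes of -0.96 ± 0.32 (adjusted p = 0.018) at 6 h and -1.29 ± 0.32 (adjusted p = 0.0012) at 96 h in isotropic unstretched tissue and of -0.89 ± 0.32 (adjusted p = 0.023) and -1.13 ± 0.32 (adjusted p = 0.0042) at 24 and 96 h in anisotropic tissue. Ccl4 did not pass in isotropic tissue at 6 h without any 1 of 0 h replicates 1 and 2 or 6 h replicate 2, at -0.86 to -0.83. It also did not pass in anisotropic tissue at 24 h without any 1 of 0 h replicates 1 and 2 or 24 h replicate 3, at -0.78 to -0.73. Ccl3 was called in no comparison as labelled, although its group means ran from 5.53 to 9.74. At 96 h it read 5.75, 5.80 and 8.46 under transverse stretch, 5.73, 5.71 and 5.15 under longitudinal stretch and 7.07, 7.41 and 7.18 in unstretched tissue. The longitudinal arrays lay below the unstretched ones, and transverse replicate 3 lay above them. The changes were -0.72 ± 0.47 (adjusted p = 0.33) and -1.41 ± 0.50 (adjusted p = 0.068), and without transverse replicate 3 the transverse change was -1.46 (adjusted p = 0.02). As for Ccl7, this array was left out with its high value known, so the larger fall is no separate support. With the 2 isotropic arrays exchanged the longitudinal difference was -1.41 (adjusted p = 0.046), and with both left out -1.44 (adjusted p = 0.028). Under isotropic stretch at 96 h it was -1.38 ± 0.46 (adjusted p = 0.099) as labelled and -1.58 (adjusted p = 0.039) with both left out.

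Ccl6 rose by 24 h and was lower at 96 h. Its changes against 0 h were 0.74 ± 0.27 (adjusted p = 0.031) in anisotropic and 1.06 ± 0.27 (adjusted p = 0.002) in isotropic tissue at 24 h and -0.88 ± 0.27 (adjusted p = 0.01) in anisotropic tissue at 96 h, and from 24 to 96 h it changed by -1.61 ± 0.31 (adjusted p = 0.00058). Ccl6 did not pass in anisotropic tissue at 24 h without any 1 of 0 h replicate 4 or 24 h replicates 2 and 3, at 0.48 to 0.76. At 96 h Ccl6 did not pass there without 96 h replicate 2, at -0.81. In isotropic tissue at 24 h Ccl6 did not pass against 0 h without 24 h replicate 2, at 0.77. Ccl9 rose at 6 h in anisotropic tissue, by 0.80 ± 0.25 (adjusted p = 0.013), which did not pass without unstretched replicate 2, at 0.68 (adjusted p = 0.091), or replicate 3, at 0.54 (adjusted p = 0.18). Ccl5 changed by 0.32 ± 0.10 (adjusted p = 0.012) at 6 h and by -0.50 ± 0.11 (adjusted p = 0.0024) from 6 to 24 h in anisotropic tissue. Ccl5 did not pass at 6 h without 6 h replicate 3, at 0.26.

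**Figure D5:**
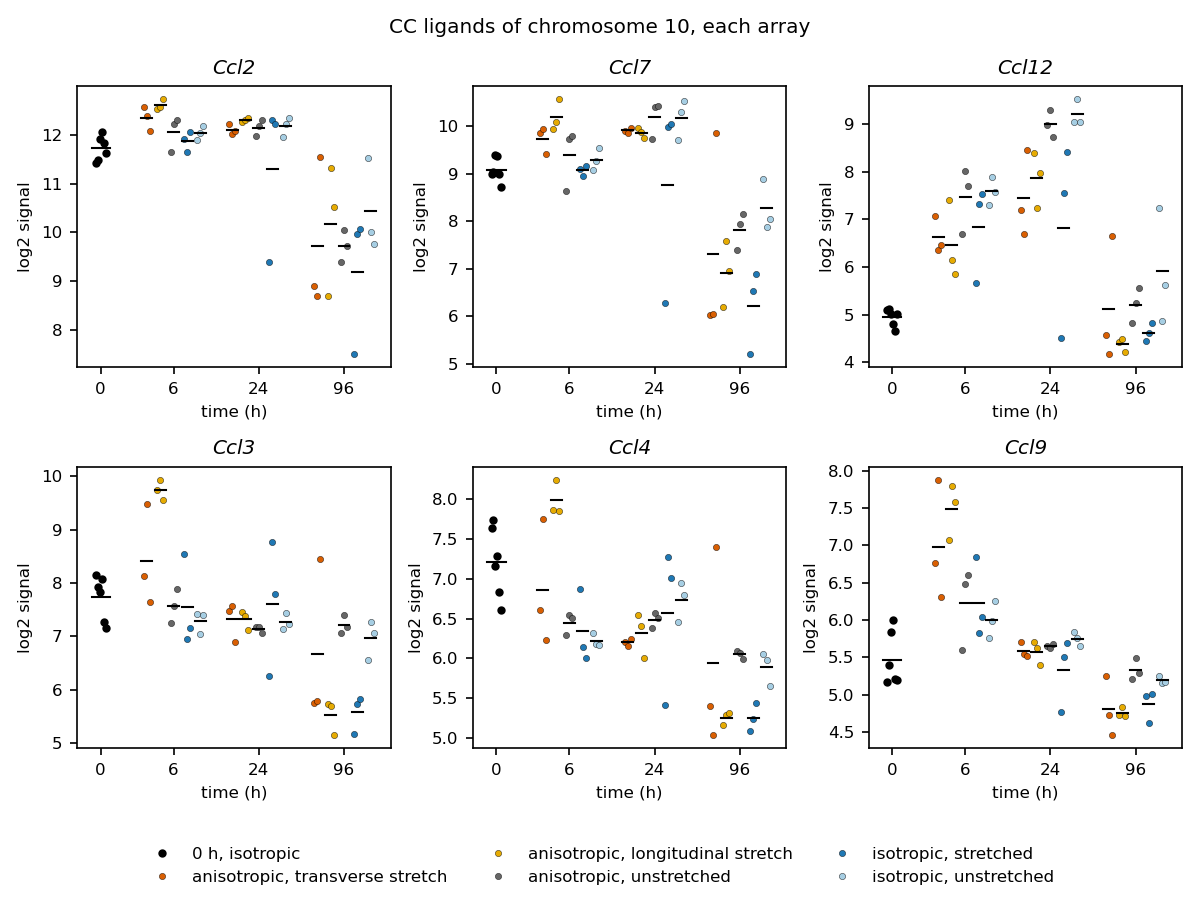
Log2 signal of 6 CC ligands of chromosome 10 in every array, by time on equally spaced steps, with group means as bars. Ccl12 lies above its 0 h range in unstretched tissue at 6 and 24 h, and at 96 h 1 transverse array (replicate 3) lies above the other two in the panels of Ccl2, Ccl7, Ccl12, Ccl3 and Ccl4.

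Cx3cl1 (fractalkine, which acts through Cx3cr1) and Cxcl16 (a ligand of Cxcr6 and a scavenger receptor) are made as membrane-bound proteins. Cx3cl1 was lower than at 0 h, with changes of -0.61 ± 0.20 (adjusted p = 0.016) at 24 h and -1.08 ± 0.20 (adjusted p = 4.9e-05) at 96 h in isotropic tissue and of -1.15 ± 0.20 (adjusted p = 1.8e-05) at 96 h in anisotropic tissue, and of -0.87 ± 0.23 (adjusted p = 0.0094) there from 24 to 96 h. Cxcl16 rose at 6 h, by 0.65 ± 0.22 (adjusted p = 0.022) in anisotropic and 0.62 ± 0.22 (adjusted p = 0.033) in isotropic tissue, and was below 0 h at 96 h, with changes of -0.88 ± 0.22 (adjusted p = 0.0018) and -0.64 ± 0.22 (adjusted p = 0.022). Its 0 h arrays lay between 8.78 and 9.30 with a median of 8.95, and anisotropic unstretched arrays read 9.38, 9.88 and 9.60 at 6 h and 7.88, 8.22 and 8.23 at 96 h. Neither time overlapped 0 h. Cxcl16 did not pass in anisotropic tissue at 6 h without any 1 of 0 h replicate 5 or 6 h replicates 1 and 2, at 0.58 to 0.63. In isotropic tissue Cxcl16 did not pass at 6 h without any 1 of 0 h replicates 2 and 5 or 6 h replicates 1, 2 and 3, at 0.52 to 0.67. For 96 h Cxcl16 did not pass in isotropic tissue without any 1 of 96 h replicates 2 and 3, at -0.54 to -0.45. Cx3cl1 did not pass in isotropic tissue at 24 h without 24 h replicate 3, at -0.34. Between 24 and 96 h Cx3cl1 did not pass in anisotropic tissue without any 1 of 24 h replicates 1 and 2 or 96 h replicate 2, at -0.78 to -0.72.

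Under isotropic stretch at 96 h Cxcl16 read 6.82, 7.66 and 7.91, against 8.58, 8.12 and 8.35 in unstretched tissue, a change of -0.88 ± 0.25 (adjusted p = 0.043). Exchanged it was -0.52 (adjusted p = 0.059) and with both arrays left out -0.63 (adjusted p = 0.045), and leaving out any array except unstretched replicate 2 ended the call, with changes from -1.07 to -0.60 over the 6 arrays. The transverse and longitudinal differences were -0.39 ± 0.26 (adjusted p = 0.34) and -0.66 ± 0.27 (adjusted p = 0.13), the longitudinal one -0.63 (adjusted p = 0.02) with the 2 isotropic arrays exchanged and -0.64 (adjusted p = 0.016) with both left out. With no harvest term, a random block and own 0 h arrays subtracted, the isotropic change was -0.88 (adjusted p = 0.17), -0.88 (adjusted p = 0.055) and -0.88 (adjusted p = 0.17). Under isotropic stretch at 96 h 6 of 13 macrophage, 2 of 10 fibroblast and 1 of 7 endothelial markers fell, against 1.43% of all genes. Of 10 cardiomyocyte markers, 1 rose. These marker counts too are as labelled and were not repeated with the 2 isotropic arrays exchanged or left out. The part of these markers in the Cxcl16 and Ccl7 changes was not tested. The Cx3cl1 difference there was -0.52 ± 0.23 (adjusted p = 0.27) as labelled, -0.72 (adjusted p = 0.037) exchanged and -0.78 (adjusted p = 0.047) with both left out.

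Cxcl13, which draws B cells to lymphoid follicles through Cxcr5, was lower under stretch at 96 h in anisotropic tissue. Its arrays read 4.18, 4.27 and 4.24 under transverse stretch, 4.28, 4.09 and 4.04 under longitudinal stretch and 4.66, 4.97 and 6.05 in unstretched tissue. Unstretched arrays lay above all stretched ones, and unstretched replicate 3 was the highest of all 51 arrays. The changes were -0.98 ± 0.21 (adjusted p = 0.00098) and -1.05 ± 0.22 (adjusted p = 0.0015), without transverse replicate 3 -0.93 (adjusted p = 0.0062) for transverse stretch, and without unstretched replicate 3 -0.63 (adjusted p = 0.021) and -0.69 (adjusted p = 0.026). Against 0 h the unstretched tissue had risen by 0.62 ± 0.18 (adjusted p = 0.0058), and this call was lost without that array, at 0.24 (adjusted p = 0.3); from 24 to 96 h the change was 0.85 ± 0.21 (adjusted p = 0.0045), and 0.51 (adjusted p = 0.068) without it. In isotropic tissue the stretch difference at 96 h was -0.54 ± 0.20 (adjusted p = 0.16) as labelled, -0.63 (adjusted p = 0.025) exchanged and -0.89 (adjusted p = 0.0021) with both arrays left out. In a fit to the arrays of 96 h and 0 h alone, the transverse and longitudinal changes were -0.88 (adjusted p = 0.069) and -0.93 (adjusted p = 0.12) and did not pass. That of unstretched tissue against 0 h was 0.55 (adjusted p = 0.12). Macrophage markers were higher in the same unstretched tissue: their mean log2 signal per array ran 5.21 to 5.82 under transverse, 5.03 to 5.65 under longitudinal stretch and 6.84 to 7.05 in unstretched tissue, and their part in the Cxcl13 result was not tested.

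The remaining called ligands changed by under 1 log2 unit. Ccl27, a ligand of Ccr10 known from skin, read 6.53, 6.81 and 6.64 in anisotropic and 6.51, 6.71 and 6.83 in isotropic unstretched tissue at 24 h, against values between 5.70 and 6.21 with a median of 5.83 over the 6 arrays of 0 h, without overlap. It was higher by 0.39 ± 0.13 (adjusted p = 0.017) and 0.53 ± 0.13 (adjusted p = 0.0013) at 6 h, by 0.84 ± 0.13 (adjusted p = 1.7e-06) and 0.87 ± 0.13 (adjusted p = 1.1e-06) at 24 h, and in isotropic tissue by 0.57 ± 0.13 (adjusted p = 0.00055) at 96 h. Ccl27 did not pass in anisotropic tissue at 6 h without any 1 of 0 h replicate 5 or 6 h replicates 2 and 3, at 0.33 to 0.37. Ccl24 (eotaxin-2, a ligand of Ccr3) lay between 4.48 and 5.03 with a median of 4.69 over the 6 arrays of 0 h and was called lower at each later time in both unstretched tissues, with changes of -0.48 ± 0.09 (adjusted p = 4.9e-05) and -0.45 ± 0.09 (adjusted p = 0.00013) at 96 h in anisotropic and isotropic tissue. Its rise under transverse stretch at 96 h, 0.32 ± 0.10 (adjusted p = 0.03), came from arrays of 4.67, 4.48 and 4.52 in transverse and 4.17, 4.33 and 4.29 in unstretched tissue and was lost without any 1 of 4 of these 6 arrays, with changes from 0.26 to 0.40 over the 6. Without transverse replicates 1 and 3 it was 0.26 (adjusted p = 0.19) and 0.31 (adjusted p = 0.078), and without unstretched replicates 1 and 2 0.28 (adjusted p = 0.13) and 0.34 (adjusted p = 0.059).

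Ccl20, the ligand of Ccr6, was higher in isotropic unstretched tissue by 0.67 ± 0.21 (adjusted p = 0.013) at 6 h and 0.66 ± 0.21 (adjusted p = 0.013) at 24 h. Ccl17 and Ccl22, the ligands of Ccr4, were called once each, Ccl17 at 0.22 ± 0.08 (adjusted p = 0.038) for isotropic 24 h against 0 h, and Ccl22 at -0.40 ± 0.13 (adjusted p = 0.037) for anisotropic 24 h against 6 h. The Ccl17 groups overlapped. Ccl20 did not pass at 6 h without 6 h replicate 3, at 0.59. For 24 h Ccl20 did not pass against 0 h without any 1 of 24 h replicates 2 and 3, at 0.43 to 0.56. Ccl17 did not pass against 0 h without any 1 of 0 h replicates 1, 3, 4, 5 and 6 or 24 h replicates 1 and 2, at 0.19 to 0.22. Ccl22 did not pass against 6 h without any 1 of 6 h replicates 2 and 3 or 24 h replicates 1, 2 and 3, at -0.44 to -0.31. As labelled, no ligand among Ccl1, Ccl3, Ccl11, Ccl19, Ccl25, Ccl26, Ccl28, Cxcl3, Cxcl14, Cxcl17 and Xcl1 was called in any of the 23 comparisons; they include Ccl19, which guides dendritic cells and naive T cells through Ccr7, Ccl25, which guides T cells to the gut through Ccr9, and Xcl1, the ligand of Xcr1. Apart from Ccl3 and Cxcl3, their group means spanned at most 0.33.

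Among receptors, Cxcr4 and Cxcr7 (Ackr3) moved with time, at different speeds. Cxcr4 is the signalling receptor of Cxcl12, and Ackr3 takes Cxcl12 up and clears it. Cxcr7 lay between 8.79 and 9.29 with a median of 9.13 over the 6 arrays of 0 h. In anisotropic unstretched tissue it read 6.77, 6.82 and 6.64 at 6 h, 6.84, 7.60 and 7.61 at 24 h and 7.85, 8.45 and 7.56 at 96 h, and in isotropic unstretched tissue 6.74, 6.91 and 6.90, 6.93, 7.27 and 7.70 and 6.57, 8.33 and 7.55. Every array of 6 h, stretched ones included, lay below every array of 0 h, and the changes in anisotropic and isotropic tissue were -2.27 ± 0.23 (adjusted p = 1.2e-09) and -2.17 ± 0.23 (adjusted p = 3.7e-09). It was lower also at 24 h, with changes of -1.75 ± 0.23 (adjusted p = 1.2e-07) and -1.80 ± 0.23 (adjusted p = 7.2e-08), and at 96 h, with -1.07 ± 0.23 (adjusted p = 0.00031) and -1.54 ± 0.23 (adjusted p = 1.4e-06).

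Cxcr4 lay between 8.59 and 9.13 with a median of 8.89 over the 6 arrays of 0 h and read 9.10, 9.26 and 9.08 at 6 h, 6.57, 7.37 and 7.18 at 24 h and 6.56, 6.94 and 6.93 at 96 h in anisotropic unstretched tissue. It was near its 0 h level at 6 h and below it, without overlap, at 24 and 96 h. The changes against 0 h were -1.85 ± 0.20 (adjusted p = 1.8e-09) and -1.95 ± 0.20 (adjusted p = 6.6e-10) at 24 h and -1.98 ± 0.20 (adjusted p = 4.8e-10) and -2.16 ± 0.20 (adjusted p = 7.1e-11) at 96 h in anisotropic and isotropic tissue, and from 6 to 24 h -2.19 ± 0.23 (adjusted p = 1.4e-08). The isotropic rise at 6 h, 0.54 ± 0.20 (adjusted p = 0.037), was 0.44 (adjusted p = 0.27) without the harvest term, 0.51 (adjusted p = 0.076) with a random block, 0.44 (adjusted p = 0.19) with own 0 h arrays subtracted and 0.49 (adjusted p = 0.068) with quantile scaling repeated. Cxcr4 did not pass there without any 1 of 0 h replicates 2, 4 and 5 or 6 h replicates 1 and 3, at 0.41 to 0.53.

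As labelled, no stretch comparison called Cxcr4 or Cxcr7. The Cxcr7 difference under transverse stretch at 96 h was -0.62 ± 0.26 (adjusted p = 0.11) as labelled and passed with the 2 isotropic arrays exchanged, at -0.64 (adjusted p = 0.031), and with both left out, at -0.66 (adjusted p = 0.028). At 24 h Cxcr4 arrays read 8.0, 8.24 and 7.56 under transverse stretch, 7.32, 7.72 and 7.97 under longitudinal stretch and 6.57, 7.37 and 7.18 in unstretched tissue. All transverse arrays lay above all unstretched ones, but the changes of 0.80 ± 0.24 (adjusted p = 0.083) and 0.45 ± 0.23 (adjusted p = 0.4) did not pass. Cxcl12 was lower under the same conditions. At 6 h in anisotropic unstretched tissue Cxcr7 was already below its 0 h level, while Cxcr4 was near its own. Of 7 endothelial markers, 7 were lower than at 0 h at 6, 24 and 96 h in both unstretched tissues. At these times 12.5%, 15.7% and 16.9% of all genes were called lower in anisotropic tissue. The median endothelial changes there were -1.35, -3.17 and -3.45, against -0.01, 0.02 and 0.02 over all genes. The mean log2 signal of these markers per array ran 8.10 to 8.64 at 0 h. In anisotropic unstretched tissue it ran 6.86 to 6.96 at 6 h, 5.47 to 5.85 at 24 h and 5.28 to 5.55 at 96 h. The part of these markers in the receptor results was not tested.

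The leukocyte receptors Ccr1 and Ccr2 had a mean signal under 5 and changed by under 0.5. At 96 h Ccr1 read 3.68, 3.65 and 3.75 under transverse stretch, 3.76, 3.64 and 3.34 under longitudinal stretch and 3.88, 4.14 and 4.01 in unstretched tissue. All transverse arrays lay below all unstretched ones. Ccr1, which binds Ccl3 and Ccl5, changed by -0.32 ± 0.08 (adjusted p = 0.0051) under transverse stretch, -0.35 (adjusted p = 0.0097) without replicate 3, and the longitudinal difference was -0.25 ± 0.09 (adjusted p = 0.057). In isotropic tissue at 96 h the Ccr1 difference was -0.24 ± 0.08 (adjusted p = 0.1) as labelled, -0.29 (adjusted p = 0.011) exchanged and -0.35 (adjusted p = 0.0048) with both left out. The longitudinal one passed in these fits too, at -0.26 (adjusted p = 0.028) and -0.26 (adjusted p = 0.018). Of the 13 macrophage markers, 11, 11 and 6 fell in these comparisons, and their part in the Ccr1 values was not tested.

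Against 0 h, Ccr1 was lower in isotropic tissue, with changes of -0.22 ± 0.07 (adjusted p = 0.017) at 6 h and -0.20 ± 0.07 (adjusted p = 0.027) at 24 h. Neither passed with no harvest term, at -0.14 (adjusted p = 0.31) and -0.12 (adjusted p = 0.39), or with harvest as a random block, at -0.17 (adjusted p = 0.13) and -0.15 (adjusted p = 0.17). Ccr2, the receptor of Ccl2 and Ccl7, lay between 3.92 and 4.17 with a median of 4.02 over the 6 arrays of 0 h and was lower, with changes of -0.16 ± 0.06 (adjusted p = 0.032) and -0.21 ± 0.06 (adjusted p = 0.0047) at 24 h and -0.19 ± 0.06 (adjusted p = 0.012) and -0.19 ± 0.06 (adjusted p = 0.012) at 96 h in anisotropic and isotropic tissue. Cx3cr1, the receptor of Cx3cl1, was higher by 0.31 ± 0.11 (adjusted p = 0.023) in anisotropic tissue at 96 h. Ccr1 did not pass at 6 h without 6 h replicate 1, at -0.17. For 24 h Ccr1 did not pass against 0 h without any 1 of 24 h replicates 1 and 3, at -0.21 to -0.16. Ccr2 did not pass in anisotropic tissue at 24 h without any 1 of 0 h replicates 1 and 3 or 24 h replicates 1 and 2, at -0.14 to -0.11. For 96 h Ccr2 did not pass in anisotropic tissue without any 1 of 0 h replicate 3 or 96 h replicate 3, at -0.15. In isotropic tissue Ccr2 did not pass at 96 h without any 1 of 0 h replicate 3 or 96 h replicate 2, at -0.17 to -0.15. Cx3cr1 did not pass at 96 h without any 1 of 0 h replicate 3 or 96 h replicates 1 and 2, at 0.23 to 0.29. As labelled, no comparison called Ccr3, Ccr4, Ccr6, Ccr7, Ccr8, Ccr9, Ccr10, Cxcr3, Cxcr5, Cxcr6 or Xcr1, whose group means spanned at most 0.38.

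Against 0 h, with the arrays as labelled and fitted together, the share of members called was below that of all genes at every time, with no test of the shares. The counts moved with the setting: isotropic tissue at 96 h gave 20 with the 2 isotropic arrays exchanged and 18 with both left out, against 13 as labelled. Anisotropic tissue at 6 h gave 17 in a fit to the arrays of 6 h and 0 h alone, against 9. Shares of all genes were not computed under those settings. In anisotropic unstretched tissue against 0 h, 9 members were called at 6 h (7 higher, 2 lower; 30.8% of all genes were called, 18.3% higher and 12.5% lower), 13 at 24 h (5 higher, 8 lower; 37.3% of all genes were called, 21.6% higher and 15.7% lower) and 16 at 96 h (2 higher, 14 lower; 37.3% of all genes were called, 20.4% higher and 16.9% lower). In isotropic unstretched tissue the counts were 12 (6 higher, 6 lower; 31.7% of all genes were called, 19.1% higher and 12.5% lower), 16 (7 higher, 9 lower; 36.8% of all genes were called, 20.8% higher and 16.1% lower) and 13 (1 higher, 12 lower; 37.9% of all genes were called, 21.8% higher and 16.1% lower). Both sets share the 0 h arrays. These are 18.4%, 26.5% and 32.7% of the members in anisotropic tissue and 24.5%, 32.7% and 26.5% in isotropic tissue. Between times in anisotropic unstretched tissue, 7 members changed from 6 to 24 h (2 higher, 5 lower; 13.5% of all genes were called, 7.09% higher and 6.44% lower) and 13 from 24 to 96 h (1 higher, 12 lower; 14.3% of all genes were called, 6.61% higher and 7.74% lower), 14.3% and 26.5% of the members. Each of the 13 calls of isotropic tissue at 96 h passed with the 2 isotropic arrays exchanged (adjusted p up to 0.014) and with both left out (adjusted p up to 0.025). With both left out those changes ran from -3.90 for Cxcl1 to 0.36 for Ccl27, and Cxcl10, Cxcr4, Cxcl2 and Cxcr7 changed by -2.96, -2.13, -2.04 and -1.20.

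Other time calls of members appeared when the 2 isotropic arrays were exchanged or left out. In isotropic tissue at 96 h against 0 h, Ccl7 differed by -0.55 ± 0.51 (adjusted p = 0.43) as labelled, -1.47 (adjusted p = 0.0019) exchanged and -1.15 (adjusted p = 0.041) with both left out. Ccl6 differed there by -0.59 ± 0.27 (adjusted p = 0.088), -0.88 (adjusted p = 0.00062) and -0.94 (adjusted p = 0.00093). Receptors passed there too. Ccr10 differed by 0.11 ± 0.08 (adjusted p = 0.32), 0.26 (adjusted p = 0.0017) and 0.19 (adjusted p = 0.047). Exchanged, Ccr4 passed at 0.24 (adjusted p = 0.0089), Cxcr5 at -0.14 (adjusted p = 0.026) and Cx3cr1 at 0.26 (adjusted p = 0.044), against 0.09, -0.07 and 0.17 as labelled. Cxcl13 passed there with both left out, at 0.64 (adjusted p = 0.0027).

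Exchanged, further gains were Ccl7 against 0 h at 24 h, at 1.22 (adjusted p = 0.0093) in anisotropic and 1.21 (adjusted p = 0.011) in isotropic tissue. Ccl7 passed at 96 h in anisotropic tissue too, at -1.05 (adjusted p = 0.028). Cxcl3 passed in isotropic tissue at 24 h, at 0.37 (adjusted p = 0.035), and Ccr1 in anisotropic tissue at 24 h, at -0.17 (adjusted p = 0.037). From 6 to 24 h in anisotropic tissue Ccl12, Ccl6 and Cxcl16 passed, at 1.45 (adjusted p = 0.015), 0.78 (adjusted p = 0.018) and -0.66 (adjusted p = 0.0075). From 24 to 96 h Cxcr7 passed, at 0.71 (adjusted p = 0.016). These 9 passed with both left out as well, and so did Ccl4 at 6 h, at -0.73 (adjusted p = 0.044), and Ccr4 at 24 h, at 0.18 (adjusted p = 0.0496), both in anisotropic tissue against 0 h.

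Other calls ended under another model. With no harvest term, the 6 h changes of Cxcl16 against 0 h were 0.61 (adjusted p = 0.089) in anisotropic and 0.59 (adjusted p = 0.099) in isotropic tissue. Those of Cxcl9 in anisotropic and of Cxcl2 and Ccl20 in isotropic tissue were 0.27 (adjusted p = 0.14), -0.90 (adjusted p = 0.069) and 0.50 (adjusted p = 0.11). That of Ccl4 in anisotropic tissue at 24 h was -0.72 (adjusted p = 0.097). In fits to the times compared and 0 h alone, Ccl2 in anisotropic tissue at 96 h against 0 h was -1.44 (adjusted p = 0.091), and Ccl7 and Cxcl16 from 24 to 96 h were -2.15 (adjusted p = 0.054) and -0.84 (adjusted p = 0.085). Ccr2 at 24 h against 0 h was -0.13 (adjusted p = 0.2) in anisotropic and -0.18 (adjusted p = 0.07) in isotropic tissue in those fits. Ccl17 at 24 h passed neither in them, at 0.18 (adjusted p = 0.16), nor with no harvest term, at 0.21 (adjusted p = 0.12). With the 2 isotropic arrays exchanged Ccl17 was 0.21 (adjusted p = 0.064). Ccl22 from 6 to 24 h was -0.37 (adjusted p = 0.095) with no harvest term. The Ccl24 rise under transverse stretch at 96 h was 0.30 (adjusted p = 0.063) with no harvest term, 0.26 (adjusted p = 0.51) with own 0 h arrays subtracted and 0.29 (adjusted p = 0.15) in the fit to 96 h and 0 h alone.

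Direction of stretch and layout called no member. Transverse against longitudinal stretch gave 0 calls at 6 h (0.0215% of all genes), 24 h (0%) and 96 h (0%), with 6, 1 and 2 members at unadjusted p under 0.05 in limma, against 379, 1458 and 1061 of all 18602 genes. The 6 at 6 h were Cxcl2, Ccl3, Ccl4, Ccl5, Cxcl3 and Cxcr6, all with lower estimates under transverse stretch, from -1.43 for Cxcl2 to -0.16 for Cxcr6; they are named after their values were seen. Anisotropic against isotropic unstretched tissue gave 0 calls at 6 h (0% of all genes), 24 h (0%) and 96 h (0.0161%), with 0, 0 and 1 members at unadjusted p under 0.05, against 246, 582 and 1989 of all genes. The F tests of layout called 0 members at 6, 24 and 96 h (0.0269%, 0% and 0% of all genes).

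Genes around the chemokine system were counted as well. Of 10 other chemokine-binding and chemokine genes, 4 fell under transverse stretch at 96 h, 2 under longitudinal and 1 under isotropic stretch, and none rose. Pf4, platelet factor 4, which is also made by macrophages, changed by -1.80, -1.94 and -1.50, and Ccrl1, an atypical receptor that clears Ccl19 and Ccl25, by -2.31 and -2.23 under transverse and longitudinal stretch. Of 18 genes of chemokine receptor signalling, 1 rose and 6 fell under transverse stretch at 96 h, 1 and 3 under longitudinal and 1 and 1 under isotropic stretch. Grk5, a kinase that desensitises receptors, was the 1 that rose at 96 h (0.91, 0.95 and 0.76), and Rac2, a GTPase of blood cells, fell in all 3 comparisons (-1.12, -1.18 and -0.83). At 24 h Grk5 was called in the other direction under isotropic stretch, at -0.64. At 96 h 15%, 9.7% and 2.94% of all genes were called under transverse, longitudinal and isotropic stretch, 8.65%, 5.39% and 1.43% lower. Of 13 macrophage markers, 11, 11 and 6 fell in the same comparisons, and their part in the values of both lists was not tested.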

How the data were processed

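Total RNA of 51 neonatal rat ventricular myocyte tissues in 16 groups was hybridised to Affymetrix arrays. Deposited values are log2 signal of 29214 probe sets; the submitters' processing notes name RMA and Affymetrix Expression Console for them. Both expression tables hold the same values (largest difference 0). The authors' deposited table of log2 fold changes with p-values, for which the notes name limma, was used to check the labels and for nothing else. Versions and the array's genome build are not given in the sources used here. Array medians ran from 5.31 to 5.43, and the number of arrays sets the precision.

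Probe sets with 1 symbol (20360; 8792 had none and 62 several) gave 18602 genes, by the highest mean where a gene had several. limma 3.58.1 in R 4.3.3 was fitted to the 51 arrays with group means and harvest terms (30 residual degrees of freedom) and no filter. P-values were adjusted by Benjamini-Hochberg over all genes per comparison at 0.05, for 23 comparisons and 6 F tests. Harvest, given by the labels for each array, pairs the arrays: deviations from group means correlated at a mean r of 0.219 within a harvest (220 pairs, 92.7% above 0) and -0.0484 between harvests (995 pairs, 39.5% above 0). On simulated data of 18602 genes for longitudinal stretch against none at 6 h, 96% of genes changed 2-fold and 100% of those changed 4-fold were recovered, with 7 false calls. The 200 changed genes were drawn at random from all genes, each with its own spread. Recovery among the chemokine genes was not computed, so these shares do not say how many of their changes would be missed. Tables and figures were made with Python 3.11.15, pandas 2.3.3 and matplotlib 3.10.9.

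The members, the gene and marker lists and the exchange of the 2 isotropic arrays were chosen with earlier results of these data known. The naming rule for members took all those called in any comparison and 10 set by name (Ccl2, Cxcl1, Cxcl2, Cxcl10, Cxcl12, Cx3cl1, Ccr1, Ccr2, Cxcr4 and Cx3cr1), with array values for the members called most often and for others where a result turned on them. The NF-kB, interferon, chemokine-binding and receptor signalling lists were planned for counts and medians only. Genes named from them were picked after their values were seen. RefSeq promoters of GRCr8 were available for 37 of the members. Of the 50 genes of the rule, 1 is not reported here. Alternatives were no harvest term, harvest as a random block, each harvest's own 0 h array subtracted, a fit to the times compared and 0 h alone, genes with a mean signal under 5 left out, repeated quantile scaling, the mean of all probe sets, the 2 arrays exchanged or left out, and each array left out in turn.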

Additional observations from a re-analysis of the deposited data

Results flagged for a closer look

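An F test asked whether the response to stretch in 1 layout changed between 6, 24 and 96 h, and 6 of its results named members. For isotropic stretch, Cxcl12 (adjusted p = 0.0017) had changes of 0.07, -1.24 and -1.58, and Cxcl11 (adjusted p = 0.044) had 0.10, -2.38 and -0.37. For longitudinal stretch, Cxcl12 (adjusted p = 0.00089) had -0.10, -1.07 and -1.89, and Ccl3 (adjusted p = 0.013) had 1.98, 0.17 and -1.41, a change of sign in which no single time passed. For transverse stretch, Cxcl12 (adjusted p = 0.0028) had -0.26, -0.97 and -1.79, and Ccr1 (adjusted p = 0.03) had 0.12, 0.11 and -0.32. Among all genes these tests called 0.344%, 1.75% and 2.83% for isotropic, longitudinal and transverse stretch. No array of the 0 h group lay far from the other 5 for any of the 27 genes checked.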

How the results depend on the processing

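No result changed direction under any alternative. Of 114 changes of called members, 84 of 84 bright enough passed with dim genes left out, 112 passed with the 2 isotropic arrays left out, 111 with them exchanged, 111 with repeated quantile scaling, 110 with harvest as a random block, 100 with own 0 h arrays subtracted, 98 in fits to the times compared, and 98 with no replicate block. With 1 array left out, 797 of 921 passed. All 114 passed with the mean of all probe sets. Each member has 1 probe set, so that setting left its values unchanged and could alter only the shared spread and the adjustment.

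Counts of called members that moved are these. With no replicate block, the harvest term that pairs the arrays, isotropic stretch at 96 h called 1 member, longitudinal stretch at 96 h 4, and the F tests over time 1 for isotropic, 5 for longitudinal and 1 for transverse stretch. A random block gave 4 for longitudinal stretch at 96 h. With own 0 h arrays subtracted, isotropic stretch at 96 h gave 1 and transverse stretch at 24 h 0. Fits to the times compared and 0 h alone gave 1 for isotropic stretch at 24 h, 5, 0 and 1 for longitudinal stretch at 6, 24 and 96 h, 0 and 2 for transverse stretch at 24 and 96 h, and 17 for anisotropic 6 h against 0 h. With dim genes left out, transverse stretch at 96 h gave 1, since 3 of its 4 called members have a mean signal under 5. With the 2 isotropic arrays exchanged, isotropic stretch at 96 h gave 5, longitudinal stretch at 96 h 5, transverse stretch at 24 h 2, and isotropic 96 h against 0 h 20. With both left out, isotropic stretch at 96 h gave 7, longitudinal stretch 2 at 6 h and 5 at 96 h, and transverse stretch at 24 h 2. With 1 array left out, the ranges were 2 to 5 and 1 to 4 for isotropic stretch at 24 and 96 h, 0 to 2 and 1 to 2 for longitudinal stretch at 6 and 24 h, 1 to 2 for transverse stretch at 24 h, 7 to 12 for isotropic and 5 to 9 for anisotropic 6 h against 0 h, and 7 to 12 for anisotropic 96 h against 24 h. Apart from the dim genes that were left out, the cause of these moves was not tested.

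Limits: each later group has 3 arrays, 1 to 3 harvests hold both groups of a stretch comparison, and how bright a probe set was against background is not analysed here. Among called members, Ccr1, Ccr2, Ccl6, Ccl22, Ccl24, Cxcl9 and Cxcl13 have a mean signal under 5.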
